A study of Mus musculus with 16 samples.

Results

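De novo lipogenesis genes encode the proteins that build fatty acids from citrate, and 10 of them were followed here through mouse aortas that differed in renal mass and diet. The genes were Srebf1, Mlxipl, Acly, Acaca, Fasn, Me1, Elovl6, Scd1, Thrsp and Pnpla3, which were chosen by name for their place in the pathway and make up 10 of the 54532 genes in the count table. All 10 had enough reads to be tested in every comparison. Male C57BL/6J mice, 12 weeks old at the first surgery, had either a sham operation or 5/6 nephrectomy (5/6 Nx), a surgical model of chronic kidney disease. RNA was sequenced from 16 aortas, 4 mice in each of 4 groups, after 30 days on diet as the sample labels give it. Sham received the same diet as 5/6 Nx-HPi-Lp, with 2% phosphorus and 2.5% protein. The diet of 5/6 Nx-HPi-Hp had 2% phosphorus and 18% protein, and that of 5/6 Nx-LPi-Lp had 0.3% phosphorus and 2.5% protein. Dietary protein was the labelled difference of 5/6 Nx-HPi-Hp from 5/6 Nx-HPi-Lp, but by the study's methods the diet with more casein also held less corn starch, slightly less sucrose and slightly less soybean oil. The low-phosphate diet in turn held more corn starch and sucrose than the high-phosphate diet at the same protein level. Protein or phosphate therefore cannot be told apart from carbohydrate, the substrate of this pathway, in the diet comparisons, and no 5/6 Nx group with low phosphate and high protein was analysed here. The question was how the lipogenic genes stood across these groups, with attention to dietary protein.

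Lipogenesis turns surplus carbohydrate into palmitate in the cytosol, mainly in liver and fat. ATP citrate lyase (Acly) releases acetyl-CoA from citrate, acetyl-CoA carboxylase (Acaca) makes malonyl-CoA, and fatty acid synthase (Fasn) joins these units with NADPH that malic enzyme (Me1) helps to supply. Elovl6 then lengthens palmitate and Scd1 introduces a double bond. Insulin and glucose raise the pathway through the transcription factors SREBP-1c, encoded by Srebf1, and ChREBP, encoded by Mlxipl, and fasting lowers it. The aorta carries perivascular fat, whose adipocytes use this pathway.

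The set of RefSeq promoters used here held start sites on GRCm38.p6 for 9 of the 10 genes, 13 sites in all. It had no entry for Scd1, whose promoter was therefore not scanned. The 250 bases before each site were scanned on both strands for 4 motifs known from lipogenic promoters. The sterol regulatory element TCACNCCAC was found before 1 site, against 1.05% of the 32851 RefSeq promoters of that length. The E-box CACGTG was also found before 1 site (6.02% of all promoters), CCAAT before 7 (33.8%) and the GC box GGGCGG before 6 (32.7%). The 2 rare matches both belonged to Mlxipl, one before each of its start sites. These stretches, from genes the results turn on and from the gene with the rare matches, are printed 5′ to 3′ on the strand of the gene, with every match in capitals. Fasn (chr11:120824548-120824797, minus strand) and Thrsp (chr7:97417551-97417800, minus strand) held CCAAT boxes and none of the other motifs, and a pair of those boxes in Fasn overlapped on opposite strands. Acly (chr11:100528001-100528250, minus strand) held GC boxes alone. The site of Mlxipl at the 5′ end of the gene (chr5:135089640-135089889, plus strand) held the E-box, and its internal site (chr5:135106641-135106890, plus strand), inside the annotated gene, held the sterol regulatory element. A match describes letters and not binding, and none was set against the expression values.
Fasn: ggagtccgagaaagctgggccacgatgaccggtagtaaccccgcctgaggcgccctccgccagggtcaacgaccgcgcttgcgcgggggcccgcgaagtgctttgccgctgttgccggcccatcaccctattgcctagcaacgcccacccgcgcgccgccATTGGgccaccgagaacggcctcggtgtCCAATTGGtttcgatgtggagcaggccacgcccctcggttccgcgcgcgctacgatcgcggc
Thrsp: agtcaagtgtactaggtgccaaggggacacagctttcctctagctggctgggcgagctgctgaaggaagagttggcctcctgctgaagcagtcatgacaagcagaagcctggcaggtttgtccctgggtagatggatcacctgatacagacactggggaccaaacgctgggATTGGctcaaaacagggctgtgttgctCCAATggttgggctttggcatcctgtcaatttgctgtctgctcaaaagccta
Acly: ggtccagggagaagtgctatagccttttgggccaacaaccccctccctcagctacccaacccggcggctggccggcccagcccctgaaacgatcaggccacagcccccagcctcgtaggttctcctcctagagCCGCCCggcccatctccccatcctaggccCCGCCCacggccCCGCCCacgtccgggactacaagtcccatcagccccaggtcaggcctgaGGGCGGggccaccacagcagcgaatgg
Mlxipl, 5′ site: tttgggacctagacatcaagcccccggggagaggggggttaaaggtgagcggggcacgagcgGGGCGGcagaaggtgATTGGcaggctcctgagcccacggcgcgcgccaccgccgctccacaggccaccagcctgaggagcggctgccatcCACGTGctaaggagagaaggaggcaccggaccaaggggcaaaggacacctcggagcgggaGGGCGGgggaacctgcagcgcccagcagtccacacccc
Mlxipl, internal site: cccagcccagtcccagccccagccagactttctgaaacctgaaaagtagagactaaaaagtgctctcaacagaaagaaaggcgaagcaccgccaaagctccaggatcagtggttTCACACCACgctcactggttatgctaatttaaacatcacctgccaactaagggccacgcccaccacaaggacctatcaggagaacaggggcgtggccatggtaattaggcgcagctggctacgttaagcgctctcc

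The libraries held 13659525 to 57276915 reads counted in genes, and the lowest count of any of the 10 genes in any library was 390. Levels are given in CPM, read counts scaled to a common library size, after TMM scaling of the 16 libraries. Mitochondrially encoded genes took 5.19% ± 1.01 (SD, n = 4) of the counts in Sham and 17.4% to 23.5% on average in the other groups. The aortas also differed in cell type markers. The summed smooth muscle markers ranged from 21665 to 25737 CPM in Sham, 2223 to 5034 CPM in 5/6 Nx-HPi-Lp, 6541 to 23205 CPM in 5/6 Nx-HPi-Hp and 7597 to 17667 CPM in 5/6 Nx-LPi-Lp. The summed level of 10 white adipocyte markers, among them Adipoq and Plin1, ranged from 1127 to 2267 CPM in Sham, 6342 to 12808 CPM in 5/6 Nx-HPi-Lp, 2098 to 13476 CPM in 5/6 Nx-HPi-Hp and 3739.8 to 9391 CPM in 5/6 Nx-LPi-Lp. Sham lay below every 5/6 Nx library on this list but for the fourth 5/6 Nx-HPi-Hp mouse. No white adipocyte marker was at 0 in any library. The largest parts of this sum in 5/6 Nx-HPi-Lp were Cfd and Fabp4, at means of 3131 and 2680 CPM. White markers did not all move alike between 5/6 Nx-HPi-Lp and 5/6 Nx-LPi-Lp. Cfd averaged 3131 and 505 CPM, and Plin1 349 and 596 CPM. The summed level of 8 brown adipocyte markers ranged from 389 to 769 CPM in Sham and 682 to 2231 CPM in 5/6 Nx-HPi-Lp. It ranged from 842 to 2950 CPM in 5/6 Nx-HPi-Hp and 1575 to 5295 CPM in 5/6 Nx-LPi-Lp. The means of this sum, 639, 1329, 1837 and 3255 CPM, were lowest in Sham and highest in 5/6 Nx-LPi-Lp, as for the 10 genes below. The summed macrophage markers were highest in 5/6 Nx-HPi-Lp (553 to 2026 CPM) and at most 479 CPM elsewhere, and sympathetic neuron markers reached 821 CPM there against 2.44 CPM in Sham. Pancreas acinar markers summed to at most 124 CPM, adrenal cortex markers to at most 13.2 CPM, and endothelial markers to 474 to 902 CPM. Markers of hepatocytes, the other cells known for this pathway, summed to at most 119 CPM. In bulk tissue, fewer fat cells and less lipogenic RNA in each of them cannot be told apart.

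The 10 genes held 0.638% ± 0.187 (SD, n = 4) of all counts in Sham, 1.17% ± 0.480 in 5/6 Nx-HPi-Lp, 1.21% ± 0.642 in 5/6 Nx-HPi-Hp and 4.00% ± 2.42 in 5/6 Nx-LPi-Lp, with 7.14% in the first 5/6 Nx-LPi-Lp mouse. Per length, in FPKM, Scd1 was the most abundant of the 10 in every group, at 496 ± 181 in Sham and 4508 ± 3036 in 5/6 Nx-LPi-Lp. Fasn came second in Sham, at 174 ± 52.6 FPKM, and in 5/6 Nx-LPi-Lp, at 1212 ± 759 FPKM. Thrsp came second in 5/6 Nx-HPi-Lp, at 258 ± 81.1 FPKM against 209.6 ± 112 FPKM for Fasn, and in 5/6 Nx-HPi-Hp, at 499.7 ± 300.4 FPKM against 422 ± 254 FPKM, differences within the SD. The least abundant were Elovl6 in Sham, at 12.3 ± 3.23 FPKM, and Mlxipl in 5/6 Nx-LPi-Lp, at 52.7 ± 26.6 FPKM.

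The order of the group means had the same ends for all 10 genes, with 5/6 Nx-LPi-Lp highest and Sham lowest. 5/6 Nx-HPi-Hp stood second for Acly, Acaca, Fasn, Me1, Elovl6, Thrsp and Pnpla3, and 5/6 Nx-HPi-Lp stood second for Srebf1, Mlxipl and Scd1. These neighbours in the middle of the order did not differ past the threshold for any of the 10. The first 5/6 Nx-LPi-Lp mouse had the highest level of all 10 genes among the 16 libraries, and the first Sham mouse the lowest level of 7. The highest library exceeded the lowest 2.87-fold for Srebf1, the narrowest range, and 28.6-fold for Scd1, the widest.

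**Figure D1:**
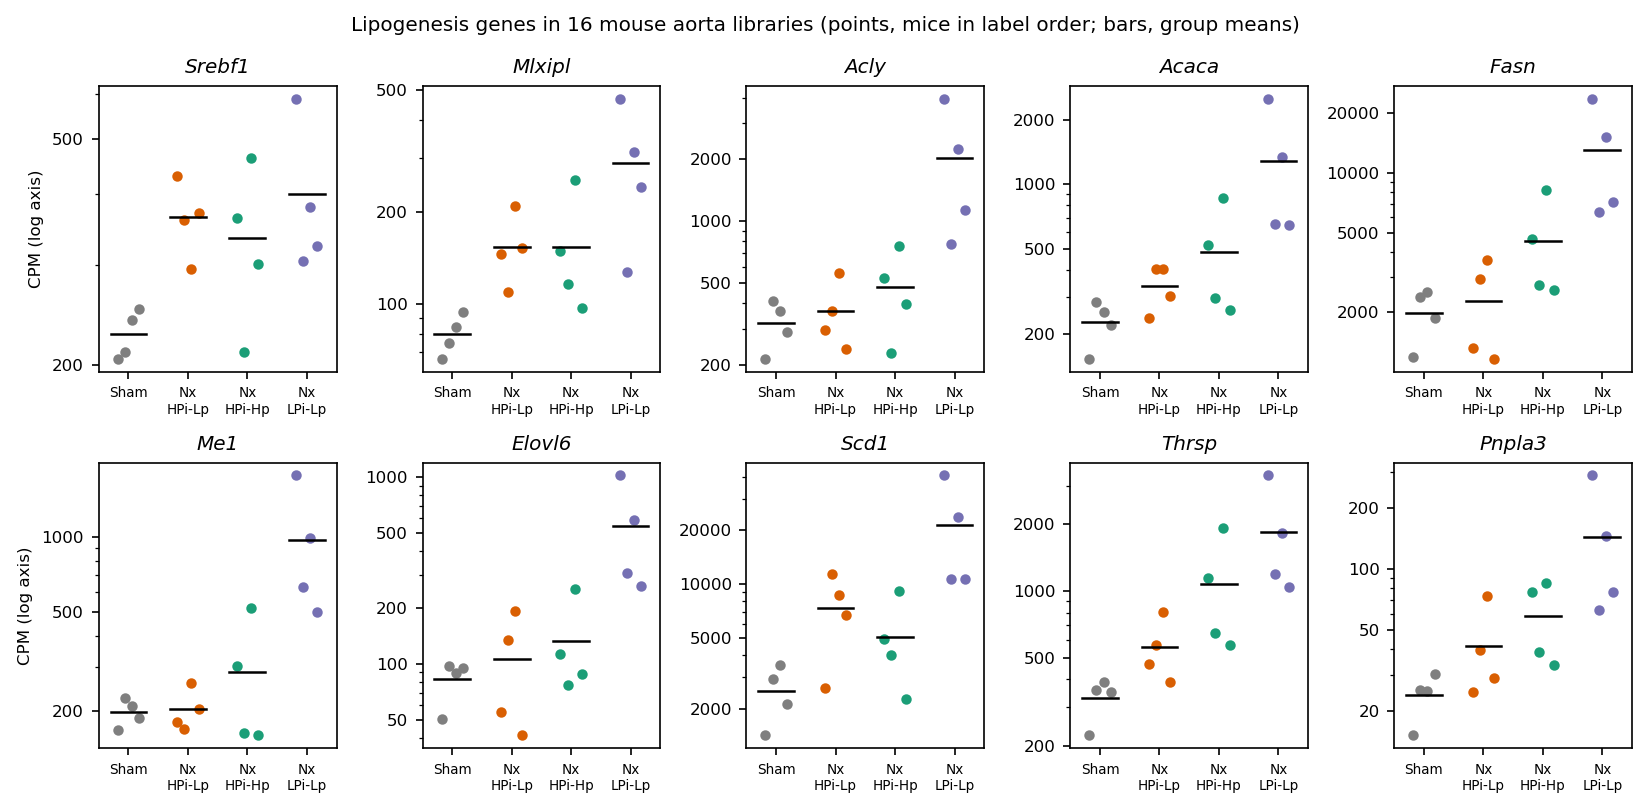
Level of each of the 10 genes in CPM on a log axis, 1 panel a gene, with 1 point for each of the 4 mice in a group and a bar at the group mean. The 5/6 Nx-LPi-Lp group has the highest mean and Sham the lowest in every panel, and the first 5/6 Nx-LPi-Lp mouse is the highest point in each.

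Among the transcription factors, Srebf1, whose product drives the enzyme genes under insulin, varied least. Srebf1 stood at 205, 211, 239.7 and 251 CPM in Sham and at 430.2, 361, 296 and 371 CPM in 5/6 Nx-HPi-Lp. Srebf1 reached 363, 211, 464 and 301 CPM in 5/6 Nx-HPi-Hp and 589, 305, 380.3 and 324 CPM in 5/6 Nx-LPi-Lp. Sham was the lowest group and overlapped only with 5/6 Nx-HPi-Hp, through its second mouse. The 3 nephrectomised groups overlapped with one another.

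Mlxipl encodes the glucose-sensing factor of the pathway. Mlxipl stood at 66.4, 75.0, 84.2 and 94.2 CPM in Sham and at 146, 109, 209.9 and 153 CPM in 5/6 Nx-HPi-Lp. Mlxipl reached 149, 117, 254 and 97.2 CPM in 5/6 Nx-HPi-Hp and 468, 128, 315 and 242 CPM in 5/6 Nx-LPi-Lp. All 12 nephrectomised mice exceeded the highest Sham mouse, and the nephrectomised groups overlapped among themselves.

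Acly and Acaca carry out the first steps, from citrate to malonyl-CoA. Acly stood at 214, 411, 363 and 288 CPM in Sham and at 295, 365, 558 and 238 CPM in 5/6 Nx-HPi-Lp. Acly reached 528, 229, 759 and 393 CPM in 5/6 Nx-HPi-Hp and 3941, 775, 2239 and 1133 CPM in 5/6 Nx-LPi-Lp. For Acly the 4 values of 5/6 Nx-LPi-Lp lay above all 12 others, and the other 3 groups overlapped. Acaca stood at 154, 284, 255 and 221 CPM in Sham and at 238, 402, 402 and 302 CPM in 5/6 Nx-HPi-Lp. Acaca reached 519.5, 294, 862 and 259.6 CPM in 5/6 Nx-HPi-Hp and 2498, 654, 1340.3 and 647 CPM in 5/6 Nx-LPi-Lp. For Acaca the 5/6 Nx-LPi-Lp values overlapped only with the third 5/6 Nx-HPi-Hp mouse.

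Fasn, the multifunctional enzyme that makes palmitate, followed the same order. Fasn stood at 1185, 2376, 2518 and 1855 CPM in Sham and at 1321, 2937, 3637 and 1163 CPM in 5/6 Nx-HPi-Lp. Fasn reached 4650.5, 2721, 8221 and 2566 CPM in 5/6 Nx-HPi-Hp and 23533, 6371, 15152 and 7175 CPM in 5/6 Nx-LPi-Lp. The 4 values of 5/6 Nx-HPi-Lp fell into a low pair and a high pair that spanned the Sham values. The low pair, mice 1 and 4, had libraries of 15665005 and 15013203 counts. The high pair, mice 2 and 3, had 57276915 and 46499243, against at most 24204348 in any other library. Acly, Acaca, Elovl6, Scd1, Thrsp and Pnpla3 were also higher in mice 2 and 3 than in mice 1 and 4. Srebf1 was lower, and Mlxipl and Me1 overlapped. Whether library depth played a part was not tested. The 5/6 Nx-HPi-Hp mice all lay above the highest Sham mouse and overlapped with both other nephrectomised groups.

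Me1 supplies NADPH. Me1 stood at 168, 225, 210.3 and 187 CPM in Sham and at 179.9, 169, 258 and 204 CPM in 5/6 Nx-HPi-Lp. Me1 reached 302, 162, 519 and 159.7 CPM in 5/6 Nx-HPi-Hp and 1763, 628, 988 and 499.7 CPM in 5/6 Nx-LPi-Lp. Sham and 5/6 Nx-HPi-Lp covered nearly the same range, and the third 5/6 Nx-HPi-Hp mouse alone reached into that of 5/6 Nx-LPi-Lp. Elovl6 lengthens palmitate to stearate. Elovl6 stood at 50.9, 96.6, 88.7 and 94.4 CPM in Sham and at 54.9, 134, 192 and 41.3 CPM in 5/6 Nx-HPi-Lp. Elovl6 reached 113, 77.3, 252 and 88.2 CPM in 5/6 Nx-HPi-Hp and 1019, 305, 591 and 261 CPM in 5/6 Nx-LPi-Lp. The 5/6 Nx-LPi-Lp values for Elovl6 lay above those of all 12 other mice.

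Scd1 makes oleate from stearate, and was the only enzyme of the set with a higher mean in 5/6 Nx-HPi-Lp than in 5/6 Nx-HPi-Hp. Scd1 stood at 1420.3, 2941, 3523 and 2126 CPM in Sham and at 2622, 11379, 8667 and 6739 CPM in 5/6 Nx-HPi-Lp. Scd1 reached 4911, 4021, 9111 and 2258 CPM in 5/6 Nx-HPi-Hp and 40626, 10729, 23752 and 10688 CPM in 5/6 Nx-LPi-Lp. In 5/6 Nx-HPi-Lp the first mouse lay inside the Sham range and the other 3 exceeded every Sham mouse. The values of 5/6 Nx-LPi-Lp overlapped with those of 5/6 Nx-HPi-Lp only through its second mouse.

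Thrsp (Spot 14) is a small protein that promotes fatty acid synthesis in fat and liver. Thrsp stood at 223, 358, 388 and 349 CPM in Sham and at 467, 573, 801 and 389.7 CPM in 5/6 Nx-HPi-Lp. Thrsp reached 1151, 647, 1927 and 573 CPM in 5/6 Nx-HPi-Hp and 3330.1, 1190.4, 1838 and 1042 CPM in 5/6 Nx-LPi-Lp. The lowest nephrectomised mouse exceeded the highest Sham mouse only narrowly, and 5/6 Nx-HPi-Lp lay below 5/6 Nx-LPi-Lp without overlap. Pnpla3 encodes a lipid droplet protein. Pnpla3 stood at 15.1, 25.4, 25.0 and 30.2 CPM in Sham and at 24.6, 39.6, 73.4 and 28.9 CPM in 5/6 Nx-HPi-Lp. Pnpla3 reached 76.8, 39.0, 85.2 and 33.5 CPM in 5/6 Nx-HPi-Hp and 288, 62.3, 145 and 77.1 CPM in 5/6 Nx-LPi-Lp. All values of 5/6 Nx-LPi-Lp, and all of 5/6 Nx-HPi-Hp, lay above Sham, and 5/6 Nx-HPi-Lp overlapped with all 3 other groups.

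Dietary protein was compared at 2% phosphorus in nephrectomised mice, 5/6 Nx-HPi-Hp against 5/6 Nx-HPi-Lp. A gene was called when the quasi-likelihood test of edgeR, adjusted by the Benjamini-Hochberg method over all genes tested, gave an adjusted p of at most 0.05 and the fold change was at least 2. None of the 10 genes was called in this comparison, in which 8.12% of the 16198 genes tested were called in either direction. Nor did any of the 10 separate the groups without overlap, against 20.4% of all genes. The log2 fold changes were above 0 for 7 genes and below 0 for 3, with a median of 0.44 (all genes -0.01). Fasn had the largest, at 1.00 ± 0.49 (SE), an interval of -0.09 to 2.10 and an edgeR adjusted p of 0.196. Thrsp followed at 0.95 ± 0.40, with an unadjusted p of 0.0397 and an edgeR adjusted p of 0.141, and was the only one of the 10 with an unadjusted p under 0.05. Acly was at 0.39, Acaca at 0.52, Me1 at 0.49, Elovl6 at 0.33 and Pnpla3 at 0.49. Scd1 lay on the other side, at -0.53 ± 0.52 with an interval of -1.69 to 0.62, and the transcription factors lay near 0, Srebf1 at -0.13 and Mlxipl at -0.0017. The intervals reached from a fall past 2-fold to a rise past 4-fold across the set, so with 4 mice a group the data do not show that the genes were alike on the 2 protein levels. DESeq2 and limma also called none of the 10. Without the third 5/6 Nx-HPi-Hp mouse the value of Fasn was 0.55 and that of Thrsp 0.50, and the call did not change. Of the related lists, 2 of 13 other fatty acid synthesis enzymes tested were called, Acss2 (1.35), which makes acetyl-CoA from acetate, as higher and Scd2 (-1.22), a desaturase close to Scd1, as lower. None of the NADPH, triglyceride, regulator, insulin or oxidation genes was called. In the same comparison 5 of 6 smooth muscle markers were higher and 5 of 5 macrophage markers lower in 5/6 Nx-HPi-Hp, and their part in the values was not tested. Of the adipocyte markers, 1 white marker of 10 was higher and 1 brown marker of 8 was lower.

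**Figure D2:**
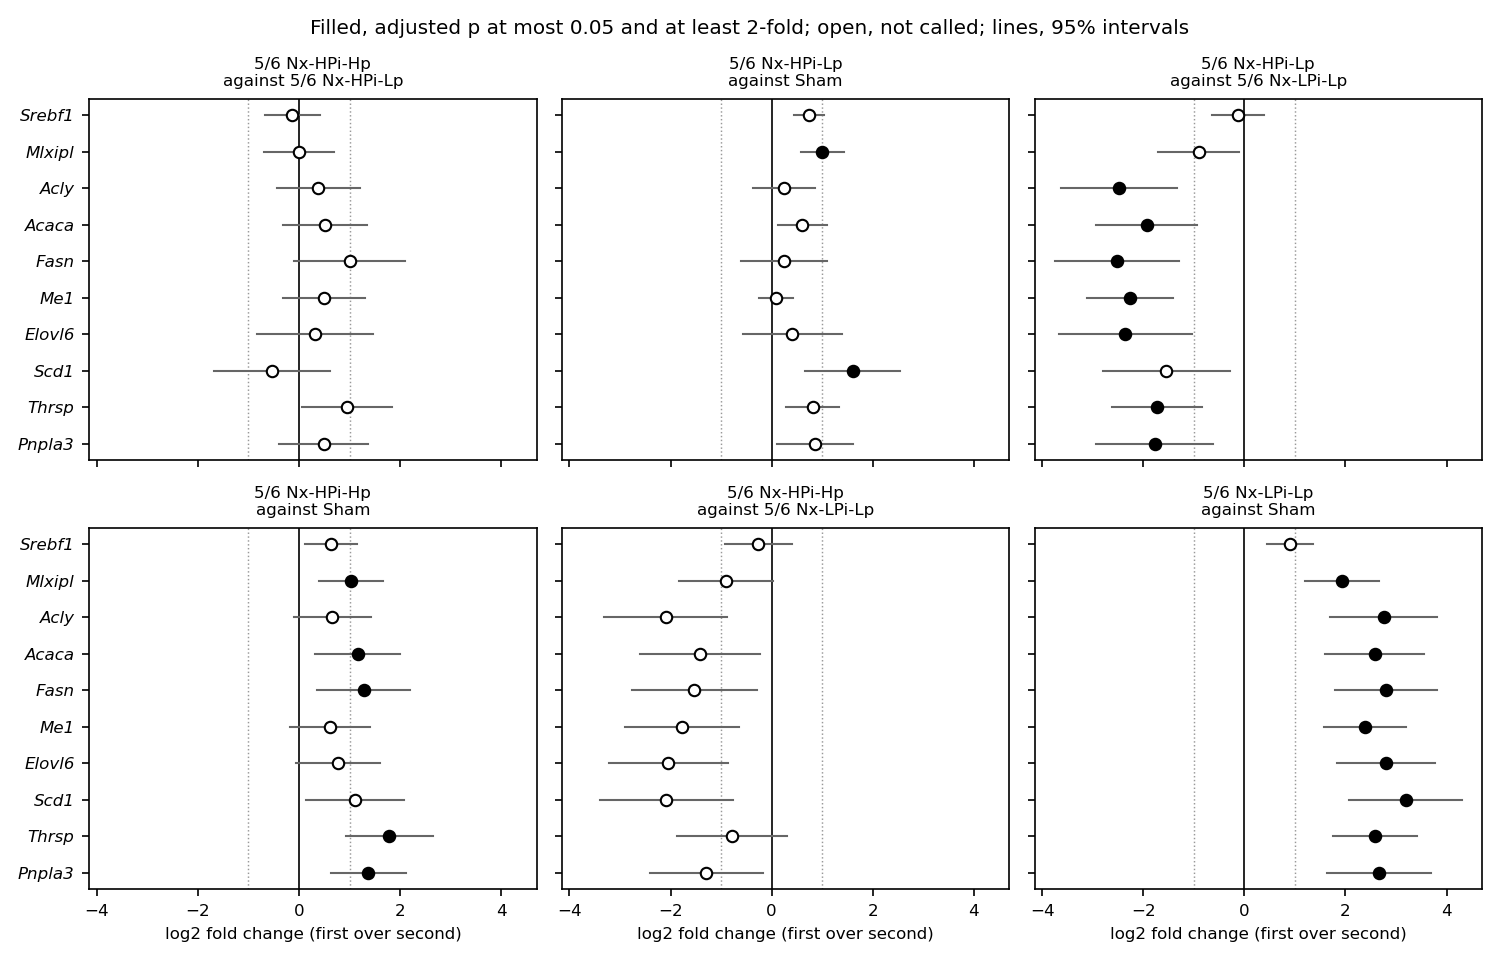
Log2 fold changes of the 10 genes with their 95% intervals in 6 comparisons, 1 panel each, with filled points for called genes and dotted lines at a 2-fold change. No point is filled for 5/6 Nx-HPi-Hp against 5/6 Nx-HPi-Lp (upper left), 7 are filled on the lower side for 5/6 Nx-HPi-Lp against 5/6 Nx-LPi-Lp (upper right) and 9 on the higher side for 5/6 Nx-LPi-Lp against Sham (lower right).

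Nephrectomy was compared on the same diet, 5/6 Nx-HPi-Lp against Sham. Of the 10 genes, 2 were called higher, Scd1 at 1.61 ± 0.42 (SE, edgeR adjusted p = 0.012) and Mlxipl at 1.00 ± 0.19 (edgeR adjusted p = 0.00237), against 15.0% of the 16513 genes tested. The share among the 10 was thus near the background. Mlxipl lay on the 2-fold threshold itself and was not called with no filter on low counts, with limma, in a fit with a replicate block or without the first or second Sham mouse or the third 5/6 Nx-HPi-Lp mouse. Srebf1 (0.74, edgeR adjusted p = 0.00204), Thrsp (0.81, edgeR adjusted p = 0.0198) and Acaca (0.61, edgeR adjusted p = 0.0443) passed the p threshold but not the fold threshold. Srebf1, Mlxipl and Thrsp were higher without overlap (3 of 10, background 18.8%). Pnpla3 was at 0.85 (edgeR adjusted p = 0.0633), Elovl6 at 0.41, Fasn at 0.24, Acly at 0.24 and Me1 at 0.09, and none of these passed. Triglyceride assembly had 4 of 6 genes called higher, led by Dgat1 (1.88), an enzyme of the last step. Oxidation and lipolysis had 6 of 12, led by Lipe (2.07), hormone-sensitive lipase, which is also on the white adipocyte list, and the regulators 4 of 14, led by Cebpa (2.25), an adipocyte transcription factor. Of NADPH supply, Idh1 (1.42) was the 1 of 6 called, and of the other synthesis enzymes Acacb (1.22) was called higher and Fads2 (-1.11) lower. No insulin gene of 6 was called. With the white adipocyte list as a covariate neither Scd1 nor Mlxipl was called. That fit called 0 genes of the whole table, against 3666 without the covariate, so the lost calls are not particular to these genes. White adipocyte markers rose in 7 of 10 and smooth muscle markers fell in 6 of 6 in the same comparison, and their part in the values was not tested.

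Phosphate was compared at 2.5% protein in nephrectomised mice, 5/6 Nx-HPi-Lp against 5/6 Nx-LPi-Lp. Here 7 of the 10 genes were called lower in 5/6 Nx-HPi-Lp, against 3.98% of the 16253 genes tested. Fasn was 5.75-fold higher in 5/6 Nx-LPi-Lp (log2 -2.52 ± 0.55, edgeR adjusted p = 0.0139) and Acly 5.55-fold higher (log2 -2.47 ± 0.51, edgeR adjusted p = 0.0115). Me1 had the smallest p, at log2 -2.26 ± 0.38 (edgeR adjusted p = 0.00523). Elovl6 (-2.36), Acaca (-1.93), Pnpla3 (-1.78) and Thrsp (-1.73) were called as well. Scd1 (-1.54, edgeR adjusted p = 0.0792), Mlxipl (-0.90, 0.101) and Srebf1 (-0.13, 0.725) were not. The median over the 10 was -1.85 (all genes -0.02). Acly, Acaca, Fasn, Me1, Elovl6 and Thrsp were lower without overlap (6 of 10, background 12.1%). Without the fourth 5/6 Nx-HPi-Lp mouse 3 remained called, Acly, Fasn and Me1. Pnpla3 lost its call in 8 of 17 alternatives, among them limma, the replicate block and 5 of the 8 fits without 1 mouse, and Acaca lost its call with the replicate block. NADPH supply had 4 of 6 called, led by Tkt (-2.07), transketolase of the pentose phosphate pathway. The other synthesis enzymes had 4 of 13, led by Acss2 (-2.45), and triglyceride assembly 2 of 6, led by Agpat2 (-1.71). Of the regulators only Insig1 (-1.81), a brake on SREBP processing and itself a SREBP target, was called, and of the insulin list 2 of 6, led by Hk2 (-1.66), hexokinase 2. Fatty acid oxidation and lipolysis had 5 of 12, led by Ppara (-1.83). Of the white adipocyte markers 2 of 10 were called higher in 5/6 Nx-HPi-Lp and none lower, while brown adipocyte markers had 1 higher and 2 lower of 8. The median log2 fold change was -0.13 over the white list and -1.41 over the brown list, in which Dio2 (2.05) was the marker called higher. The part of the brown markers in the result was not tested. All 6 smooth muscle markers were lower and all 5 macrophage markers higher in 5/6 Nx-HPi-Lp, and their part in the result was not tested.

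Protein and phosphate differed together when 5/6 Nx-HPi-Hp was set against 5/6 Nx-LPi-Lp. The values of the 10 genes lay below 0 in all 10 and had a median of -1.47, but none was called, with 0% called of the 15850 genes tested with edgeR's quasi-likelihood test. At an unadjusted p under 0.05 there were 1420 genes, among them 7 of the 10, and DESeq2 called 78 genes, with Elovl6 as the only one of the 10, while limma and a fit of all 16 libraries called none. Acly (-2.09 ± 0.55, interval -3.31 to -0.88), Scd1 (-2.08 ± 0.59, interval -3.40 to -0.76) and Elovl6 (-2.04 ± 0.52, interval -3.21 to -0.87) were lower without overlap (3 of 10, background 2.22%). Fasn was at -1.53, Me1 at -1.77 and Thrsp, the least displaced of the enzymes and cofactors, at -0.79. No gene of the related lists was called. With the white adipocyte list as a covariate, 135 genes were called in this comparison, and 7 of the 10 were among them as lower: Acly, Acaca, Fasn, Me1, Elovl6, Scd1 and Pnpla3.

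Against Sham, 5/6 Nx-HPi-Hp differed in surgery and protein. Of the 10 genes, 5 were called higher, against 9.41% of the 15882 genes tested. They were Thrsp (1.79 ± 0.39, edgeR adjusted p = 0.0121), Pnpla3 (1.37 ± 0.33, edgeR adjusted p = 0.016), Fasn (1.28 ± 0.41, edgeR adjusted p = 0.0396), Acaca (1.17 ± 0.38, edgeR adjusted p = 0.0404) and Mlxipl (1.03 ± 0.29, edgeR adjusted p = 0.0251). Mlxipl, Fasn, Thrsp and Pnpla3 were higher without overlap (4 of 10, background 13.9%). Scd1 was at 1.11 (edgeR adjusted p = 0.0751), Elovl6 at 0.76, Acly at 0.66, Srebf1 at 0.64 and Me1 at 0.62, and none was called. With the white adipocyte list as a covariate none of the 5 was called, and Mlxipl was at -0.09, Acaca at -0.40 and Fasn at -0.29. That fit called 33 genes of the whole table, against 1932 without the covariate, so the lost calls are not particular to these genes. Thrsp and Pnpla3 alone stayed called with limma. Leaving out 1 library gave 2 to 6 called genes, with 2 without any of the first 3 Sham mice or the third 5/6 Nx-HPi-Hp mouse. Triglyceride assembly had 5 of 6 genes higher, led by Dgat2 (2.86), oxidation and lipolysis 10 of 12, led by Lipe (2.39), and the regulators 4 of 14, led by Cebpa (2.71). The other synthesis enzymes had 3 of 13, led by Acacb (1.53), NADPH supply 1 of 6, Tkt (1.42), and the insulin list 1 of 6, Slc2a4 (1.15). White adipocyte markers rose in 9 of 10 and brown adipocyte markers in 6 of 8, with 1 lower.

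The comparison of 5/6 Nx-LPi-Lp with Sham, in which surgery and phosphate differed, was added after the levels had been seen. Of the 10 genes, 9 were called higher, against 8.79% of the 16071 genes tested, and the tenth, Srebf1, stood at 0.91 ± 0.20 (edgeR adjusted p = 0.01), below the fold threshold. All 10 were higher without overlap (background 13.6%), with a median log2 fold change of 2.62 (all genes 0.02). Scd1 rose 9.12-fold (log2 3.19 ± 0.50, edgeR adjusted p = 0.00344), Fasn 7.0-fold (2.81 ± 0.45, 0.00346) and Acly 6.74-fold (2.75 ± 0.48, 0.0039). Elovl6 was at 2.81, Pnpla3 at 2.67, Acaca at 2.58, Thrsp at 2.58 and Mlxipl at 1.94. Me1 was 5.22-fold higher here. With the white adipocyte list as a covariate none of the 9 was called, and Srebf1 was at -0.08. That fit called 0 genes of the whole table, against 1748 without the covariate, so the lost calls are not particular to these genes. The related lists rose as well, with all 6 triglyceride genes, led by Dgat2 (2.52), 11 of 12 for oxidation and lipolysis, led by Pdk4 (2.51), and 5 of 6 for NADPH supply, led by Tkt (2.38). The regulators had 5 of 14, led by Cebpa (2.34), the other synthesis enzymes 4 of 13, led by Acacb (2.59), and the insulin list 2 of 6, led by Slc2a4 (2.01). White adipocyte markers rose in 9 of 10 and brown in 7 of 8.

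Since fat cell markers moved with the groups, each gene was also set against the white adipocyte list within a library, as the log2 level of the gene minus the mean log2 level of the 10 markers. This is a description with no test. For Fasn the difference was 4.77, 5.15, 4.61 and 4.78 in Sham, 2.19, 3.59, 3.96 and 1.5 in 5/6 Nx-HPi-Lp, 3.28, 3.65, 3.59 and 4.54 in 5/6 Nx-HPi-Hp and 5.87, 4.88, 5.86 and 5.38 in 5/6 Nx-LPi-Lp. On this scale 5/6 Nx-HPi-Lp and also 5/6 Nx-HPi-Hp lay below Sham, which had the same 2% phosphorus, and 5/6 Nx-LPi-Lp overlapped with Sham. Me1 stood at 1.96, 1.76, 1.03 and 1.47 in Sham and -0.68, -0.53, 0.14 and -1.01 in 5/6 Nx-HPi-Lp. Its differences were -0.66, -0.41, -0.39 and 0.54 in 5/6 Nx-HPi-Hp and 2.13, 1.54, 1.93 and 1.54 in 5/6 Nx-LPi-Lp, with the same split. Acly, Acaca, Fasn, Me1, Elovl6, Scd1 and Thrsp were lower without overlap in 5/6 Nx-HPi-Lp than in 5/6 Nx-LPi-Lp (7 of 10, background 5.92%). The same held for these 7 genes in 5/6 Nx-HPi-Hp against 5/6 Nx-LPi-Lp (background 1.47%), 2 comparisons that share the 5/6 Nx-LPi-Lp mice. Acly separated there only narrowly, at most 1.834 against at least 1.842. Relative to the brown adipocyte list, Fasn, Me1, Elovl6 and Scd1 were lower without overlap there (background 0.0757%), Fasn only narrowly, at most 6.030 against at least 6.036. Srebf1 was higher (background 9.38%), and the others, Acly, Acaca and Thrsp among them, overlapped. In 5/6 Nx-HPi-Lp that list gave Acly, Acaca, Fasn, Me1, Elovl6 and Pnpla3 as lower (background 0.283%).

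None of the 10 genes separated 5/6 Nx-HPi-Hp from 5/6 Nx-HPi-Lp relative to the list (background 0.451% higher). Against Sham most genes of the whole table fell relative to the list, whose own level had risen. In 5/6 Nx-HPi-Lp 7 of the 10 were lower without overlap (background 83.2%) and in 5/6 Nx-HPi-Hp 5 were (background 58.3%). In 5/6 Nx-LPi-Lp only Srebf1 was lower without overlap (background 86.8%), while Scd1 and Thrsp were higher (2 of 10, background 0.137%). Thrsp cleared Sham narrowly, at least 2.46 against at most 2.42. Srebf1 stood at 2.24, 1.66, 1.22 and 1.89 in Sham and 0.55, 0.50, 0.55 and 0.92 in 5/6 Nx-LPi-Lp. The brown adipocyte list in place of the white one gave 3 of the 10, Fasn, Thrsp and Pnpla3, as higher without overlap in 5/6 Nx-HPi-Hp than in 5/6 Nx-HPi-Lp (background 1.15%). Brown markers did not all move alike in that comparison. Dio2 (log2 fold change -1.75) and Elovl3 (-2.01) were lower and the others higher, Cidea (1.04) the most, so this result depends on the markers listed. In 5/6 Nx-LPi-Lp against Sham the brown list gave Scd1 and, narrowly, Fasn and Elovl6 as higher (background 0.0684%). Srebf1 was lower there (background 90.2%), and Thrsp overlapped with Sham.

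**Figure D3:**
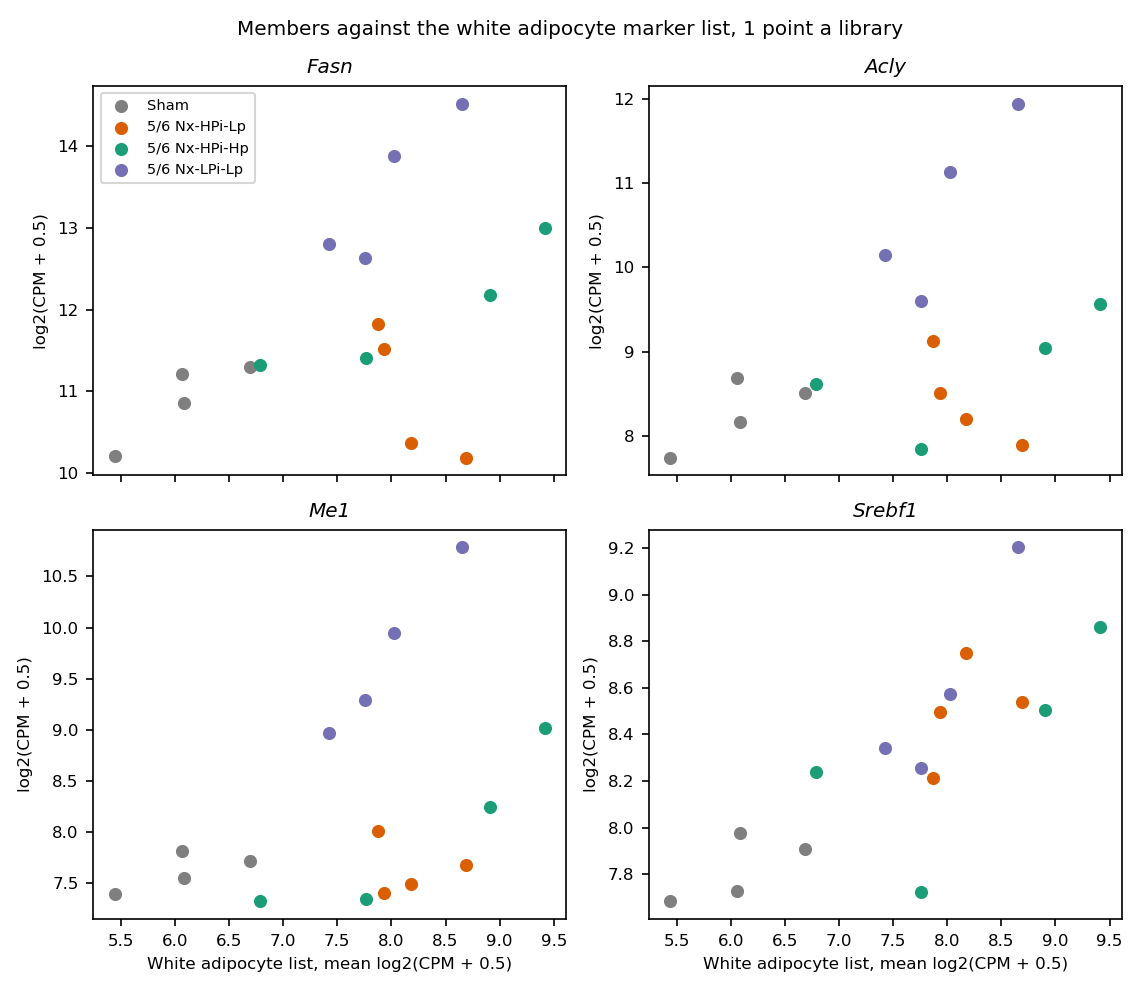
Level of Fasn, Acly, Me1 and Srebf1 (log2 CPM, vertical axes) against the mean level of the 10 white adipocyte markers (log2 CPM, horizontal axes), 1 point a library, coloured by group. At similar marker levels the 5/6 Nx-LPi-Lp points lie above the other nephrectomised groups for Fasn, Acly and Me1, and the 3 nephrectomised groups mix for Srebf1. Sham lies at lower marker levels (5.44 to 6.69) than 5/6 Nx-LPi-Lp (7.42 to 8.65).

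The 10 genes also differed in their proportions to one another, which were described as the ratio of read counts to Fasn within a library, a measure added after the levels had been seen and given with no test. The Scd1 to Fasn ratio was 1.2, 1.24, 1.40 and 1.15 in Sham and 1.98, 3.87, 2.38 and 5.79 in 5/6 Nx-HPi-Lp. It was 1.06, 1.48, 1.11 and 0.880 in 5/6 Nx-HPi-Hp and 1.73, 1.68, 1.57 and 1.49 in 5/6 Nx-LPi-Lp. The 4 values of 5/6 Nx-HPi-Lp, the group with high phosphate, low protein and nephrectomy, thus lay above those of the 12 other mice. Beside this, 7.71% of all genes had a higher ratio to Fasn without overlap in 5/6 Nx-HPi-Lp than in Sham, 76.3% than in 5/6 Nx-LPi-Lp, and 12.2% had a lower one in 5/6 Nx-HPi-Hp than in 5/6 Nx-HPi-Lp.

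The Elovl6 to Fasn ratio was lowest in the high-protein group, by a narrow margin. It was 0.0243, 0.0284, 0.0306 and 0.0344 in 5/6 Nx-HPi-Hp, against 0.0416, 0.0457, 0.0529 and 0.0355 in 5/6 Nx-HPi-Lp. In Sham it was 0.0429, 0.0407, 0.0352 and 0.0509, and in 5/6 Nx-LPi-Lp 0.0433, 0.0478, 0.0390 and 0.0364. The 5/6 Nx-HPi-Hp values lay below the other 12, though the highest of them, 0.0344, came close to the lowest of Sham, 0.0352, and of 5/6 Nx-HPi-Lp, 0.0355. A lower ratio without overlap was seen for 37.6% of all genes in 5/6 Nx-HPi-Hp against Sham and for 0.0631% against 5/6 Nx-LPi-Lp, where Me1, Elovl6 and Scd1 were 3 of the 10 genes concerned in the whole table. Elovl6 and Scd1 were the only 2 of the 9 genes with a ratio to Fasn that separated 5/6 Nx-HPi-Hp from 5/6 Nx-HPi-Lp, both lower, and ratios of FPKM also gave 2. Of all genes, 12.2% had a lower ratio without overlap in that comparison. Without the second 5/6 Nx-HPi-Lp mouse there were 6, and without the third 5/6 Nx-HPi-Lp mouse or the fourth 5/6 Nx-HPi-Hp mouse 4. The share of all genes was not computed for these.

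**Figure D4:**
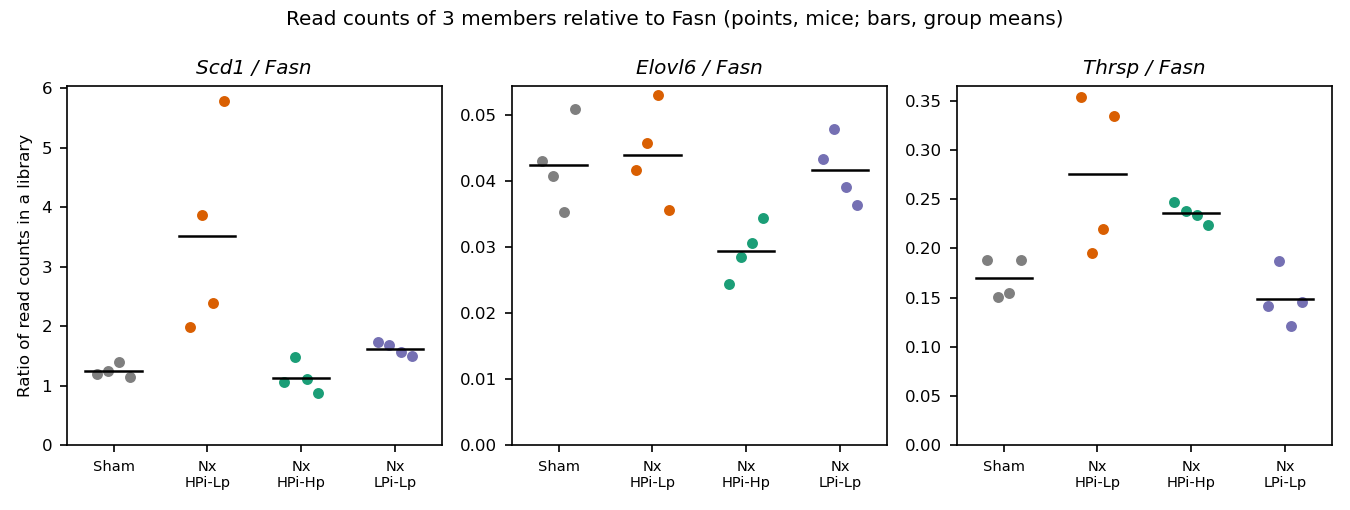
Ratio of the read counts of Scd1, Elovl6 and Thrsp to those of Fasn in each library, with a point for each mouse and a bar at the group mean on axes that start at 0. The Scd1 ratio is 1.98 or more in the 4 mice of 5/6 Nx-HPi-Lp and at most 1.73 elsewhere, and the Elovl6 ratio is lowest in 5/6 Nx-HPi-Hp.

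Genes with the pattern most like Fasn were found among 13388 genes by the root-mean-square difference of their log2 levels, each centred on its own mean over the 16 libraries. The nearest was Pygl (0.29), a glycogen phosphorylase, followed by the mitochondrial glycerol-3-phosphate dehydrogenase Gpd2 (0.36), the processed pseudogene Gm13910 (0.36), the transketolase Tkt (0.38) and the cytosolic glycerol-3-phosphate dehydrogenase Gpd1 (0.39). Reads of a pseudogene can come from its parent gene, so Gm13910 is uncertain. Among the 10 themselves, Elovl6 (0.30) and Acly (0.37) came closest to Fasn and Scd1 (0.68), Mlxipl (0.76) and Srebf1 (1.05) were farthest, with 973 genes outside the set nearer to Fasn than Srebf1 was. The points share libraries and depth, so these distances describe the pattern only.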

How the data were processed

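RNA was sequenced from 16 whole mouse aortas in 4 groups of 4. The authors aligned reads to mm10 with HISAT2, and one deposited table gives counts per gene from featureCounts 1.5.0-p3. The other gives FPKM values that the authors computed from these counts, with a scaling between libraries that the sources used here do not describe. Recomputed here, that scaling matched the size factors of DESeq2 times the geometric mean library size, at a ratio of 1 in all 16 libraries. Counting options and strand are not given in the sources used here. Groups came from the sample labels. Counts were filtered with filterByExpr, scaled by TMM and tested with edgeR 4.0.16 (quasi-likelihood, 8 libraries a comparison, Benjamini-Hochberg over all genes tested) in R 4.3.3, and the scripts were tested on simulated data. A call needed an adjusted p of at most 0.05 and at least a 2-fold change. Alternatives used DESeq2 1.42.0, and limma 3.58.1 on log2(FPKM + 1) or log2(FPKM + 0.1). Errors after a mean are SD over 4 mice and errors after a fold change are SE, with 95% intervals. The 10 genes were named throughout, with the called gene of largest rise and of largest fall in each related list and the 5 genes nearest to Fasn, where genes averaging 50 counts or more were ranked. The genes and lists were chosen with earlier results of these data known. Relative levels used log2(CPM + 0.5). The comparison of 5/6 Nx-LPi-Lp with Sham and the ratios to Fasn were added after levels had been seen. Mice with the same animal number in different groups are different mice, so no pairing was used. The edgeR p-values set the group difference against the variation between mice within the groups, estimated over the groups together and moderated across genes. Depth of 13659525 to 57276915 counts left at least 390 counts for each of the 10 genes in each library.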

Additional observations from a re-analysis of the deposited data

How the results depend on the processing

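In 5/6 Nx-HPi-Hp against 5/6 Nx-HPi-Lp, all members stayed uncalled in every alternative, with 0 to 0 calls when 1 library was left out. The edgeR, DESeq2 or limma adjusted p ranged from 0.0777 to 0.464 for Fasn and from 0.0529 to 0.353 for Thrsp. In 5/6 Nx-HPi-Lp against Sham the count of all members called, 2, became 1 with no filter on low counts, with limma at either pseudocount and with a replicate block, 5 with no fold threshold and 0 with the white adipocyte list as covariate. Leaving out 1 library gave 1 to 3, with 1 without Sham 1, Sham 2 or 5/6 Nx-HPi-Lp 3 and 3 without 5/6 Nx-HPi-Lp 1. In 5/6 Nx-HPi-Hp against Sham the count of 5 became 2 with limma at either pseudocount, 3 in a fit of all 16 libraries, 2 with a replicate block and 0 with the covariate. Leaving out 1 library gave 2 to 6 (2 without Sham 1, 2 or 3 or 5/6 Nx-HPi-Hp 3, and 3 without Sham 4 or 5/6 Nx-HPi-Hp 1). In 5/6 Nx-HPi-Hp against 5/6 Nx-LPi-Lp the count of 0 became 1 with DESeq2 and 7 with the covariate, and stayed 0 to 0 without 1 library. In 5/6 Nx-LPi-Lp against Sham 9 became 0 with the covariate and 9 to 10 without 1 library. In 5/6 Nx-HPi-Lp against 5/6 Nx-LPi-Lp 7 stayed 7 with the covariate, became 6 with limma at either pseudocount (without Pnpla3), 5 with a replicate block (without Acaca and Pnpla3) and 8 with DESeq2 or the fit of all 16 libraries, and was 3 to 8 without 1 library, with 3 without 5/6 Nx-HPi-Lp 4. With the covariate the median SE of the 10 was 3.02 times that without it in 5/6 Nx-HPi-Lp against Sham, 1.38 times in 5/6 Nx-LPi-Lp against Sham and 0.85 times in 5/6 Nx-HPi-Hp against Sham. The cause of the lost calls was not tested.

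Over all members, the number without overlap relative to the white adipocyte list in 5/6 Nx-HPi-Hp against 5/6 Nx-HPi-Lp, 0, became 3 with the brown list (1.15% of all genes) and 0 to 1 without 1 library (1 without 5/6 Nx-HPi-Lp 3). In 5/6 Nx-HPi-Hp against Sham, 5 became 2 with the brown list (1 higher, with 0.995% of all genes, and 1 lower, with 29.6%) and 5 to 10 without 1 library (9 without Sham 3, 10 without 5/6 Nx-HPi-Hp 4). The range without 1 library was 7 to 9 in 5/6 Nx-HPi-Lp against Sham, 7 to 9 against 5/6 Nx-LPi-Lp, 7 to 10 in 5/6 Nx-HPi-Hp against 5/6 Nx-LPi-Lp, and 3 to 6 in 5/6 Nx-LPi-Lp against Sham (5 without Sham 2, 6 without 5/6 Nx-LPi-Lp 2). The count of ratios to Fasn, 2, ranged from 2 to 6.

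Directions turned in 22 of the fold changes recomputed, while 922 kept direction and call, 61 lost the call and 15 gained one. By dietary protein, Mlxipl was 0.018 with DESeq2 and 0.019 with RLE scaling, and without 1 library it ranged from -0.35 to 0.19, above 0 without 5/6 Nx-HPi-Lp 3 or 5/6 Nx-HPi-Hp 1, 2 or 4. Srebf1 ranged from -0.32 to 0.056, above 0 without 5/6 Nx-HPi-Hp 2, and Elovl6 from -0.19 (without 5/6 Nx-HPi-Hp 3) to 0.80. In 5/6 Nx-HPi-Lp against Sham, without 1 library, Acly ranged from -0.018 to 0.42, Fasn from -0.061 to 0.48, Me1 from -0.031 to 0.18 and Elovl6 from -0.027 to 0.69, each lowest without 5/6 Nx-HPi-Lp 3. Over all alternatives of that comparison Fasn reached 0.50 and Elovl6 1.44. In 5/6 Nx-HPi-Lp against 5/6 Nx-LPi-Lp, Srebf1 ranged from -0.26 to 0.10, above 0 without 5/6 Nx-LPi-Lp 1. With the covariate Me1 was -0.13 in 5/6 Nx-HPi-Lp against Sham, and Srebf1 -0.082 in 5/6 Nx-LPi-Lp against Sham. In 5/6 Nx-HPi-Hp against Sham it gave Mlxipl -0.089, Acly -0.36, Acaca -0.40, Fasn -0.29, Me1 -0.86, Elovl6 -0.56 and Scd1 -0.63. The cause of these shifts was not tested.

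Over all genes, the calls in the order 5/6 Nx-HPi-Hp against 5/6 Nx-HPi-Lp, 5/6 Nx-HPi-Lp against Sham and against 5/6 Nx-LPi-Lp, and 5/6 Nx-HPi-Hp against Sham and against 5/6 Nx-LPi-Lp, then 5/6 Nx-LPi-Lp against Sham, were 1315, 3666, 1931, 1932, 0 and 1748. DESeq2 gave 2094, 4662, 2686, 2557, 78 and 2099, limma 783, 2057, 1068, 878, 0 and 870, the fit of all 16 libraries 2011, 3864, 2433, 1952, 0 and 1388, and the covariate 1409, 0, 1728, 33, 135 and 0.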
